A study of Homo sapiens with 6 samples.

Results

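The synuclein genes SNCB and SNCG and 6 further genes linked to neurodegenerative disease (PARK7, PINK1, LRRK2, APP, SOD1 and TARDBP) were described in control libraries of SH-SY5Y cells. These 8 genes were taken by name from 60709 genes with values in the count table. The rule itself uses no measured value, but the genes and the lists beside them were chosen with earlier results of these data known. SH-SY5Y is an established human neuroblastoma line of sympathetic origin that is widely used as a neuron-like model in work on Parkinson's disease. The study addressed the response of such cells to a fumarate joined to what the labels term an Nrf2 peptide, and its labels list 3 control samples and 3 samples given this compound. NRF2 is the transcription factor that switches on antioxidant genes.

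Every well of both groups received 10 uL of DMSO in 2 mL of medium at 80% confluence, and cells were lysed after 5 h. Treated wells also received 200 uL of peptide solution, made from 2 mg in 600 uL of water, and the labels give no water addition for the controls. Counts were matched to the 3 control samples by the number in the column heading. The treated samples were not analysed here, so no response of the 8 genes is reported. If the headings of the table had been numbered afresh, the libraries taken as control below could be those of treated cells. The labels do not say whether the 3 wells came from separate cultures, so the SDs given may be technical.

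Synucleins are small proteins of presynaptic nerve endings, and SNCB and SNCG encode the beta and gamma forms. PINK1 is a kinase that accumulates on damaged mitochondria and marks them for autophagy. PARK7 encodes a redox-sensitive protein that protects cells from oxidative stress, and LRRK2 a kinase of Rab proteins that act in vesicle traffic. APP is the precursor from which secretases cut the amyloid beta peptide. SOD1 is the cytosolic copper-zinc superoxide dismutase, and TARDBP encodes a nuclear RNA-binding protein that forms aggregates in amyotrophic lateral sclerosis.

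The libraries held 8887854 to 11397407 counts. Levels are given as CPM, the counts scaled to a library total of 1000000. Where a gene has no count, its true level may still reach 3 counts, or 0.263 to 0.339 CPM in these libraries. The 13920 genes that reached 10 counts in all 3 libraries are termed measured below, and 7 of the 8 genes were among them, SNCG being the exception. Control replicate 3 stood apart from the others. Its mitochondrially encoded genes took 6.25% of the counts, against 4.11% and 3.83% in replicates 1 and 2, and its counts differed more from those of either other library than these differed from each other. GC content of the transcripts went with deviations in replicates 1 and 3, in opposite directions. Relative to each gene's own mean, the median deviation in the bin of lowest GC was -0.20, -0.01 and 0.20 on the log2 scale in replicates 1, 2 and 3, and in the bin of highest GC 0.13, 0.05 and -0.18. Of 10 markers of noradrenergic neuroblastoma, 9 were measured. The exception was TH, the gene of tyrosine hydroxylase, with 0 counts in all 3. The summed CPM of these markers was 3580, 3488 and 3188 in replicates 1, 2 and 3. Of 20 markers of astrocytes, leukocytes and microglia, oligodendrocytes, endothelium and epithelium, 4 were measured, and no list of these summed to more than 2.63 CPM in any library. AIF1, MOG, MAG, CDH5 and CDH1 had 0 counts throughout. Of 4 fibroblast markers, COL1A1, DCN and LUM were measured, and the list summed to 33.9 to 34.8 CPM; the part of such cells in any result was not tested. In these bulk samples, fewer cells that express a gene and less RNA per cell cannot be told apart.

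The genes lie on 5 chromosomes (GRCh38 coordinates, with gene extents from GENCODE release 29). APP (ENSG00000142192.21, chr21:25880550-26171128, minus strand) and SOD1 (ENSG00000142168.15, chr21:31659622-31668931, plus strand) share chromosome 21. PARK7 (ENSG00000116288.13, chr1:7954291-7985505), TARDBP (ENSG00000120948.19, chr1:11012344-11026420) and PINK1 (ENSG00000158828.8, chr1:20633455-20651511) are all on the plus strand of chromosome 1. LRRK2 (ENSG00000188906.17) is at chr12:40196744-40369285 on the plus strand. The synuclein genes are apart from each other, SNCB (ENSG00000074317.11) at chr5:176620084-176630556 on the minus strand and SNCG (ENSG00000173267.14) at chr10:86958618-86963260 on the plus strand. All 8 are annotated as protein-coding, and the counts are per gene, so isoforms were not told apart.

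Sequence upstream of the start was available for 6 of the genes in the RefSeq promoter table (build GRCh38.p14), and was searched in the 250 bases before each annotated start. The genes without an entry were PINK1 and SOD1. The motif searched was TGACNNNGC on both strands, the core of the antioxidant response element to which NRF2 binds. SNCB and PARK7 each held 1 match, while the windows of SNCG, LRRK2, APP and TARDBP held none. Of 35114 windows over all genes, 10.9% held the motif. The stretches below are the parts of 4 windows outside annotated exons of protein-coding genes. They are shown because they carry the matches (SNCB and PARK7, in capitals) or belong to the genes with the fewest and the most counts (SNCG and APP). They read 5′ to 3′ on the strand of the gene, at chr5:176630557-176630617, chr1:7961461-7961662, chr10:86958349-86958598 and chr21:26170788-26170984.
SNCB: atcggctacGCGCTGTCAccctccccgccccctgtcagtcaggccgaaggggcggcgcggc
PARK7: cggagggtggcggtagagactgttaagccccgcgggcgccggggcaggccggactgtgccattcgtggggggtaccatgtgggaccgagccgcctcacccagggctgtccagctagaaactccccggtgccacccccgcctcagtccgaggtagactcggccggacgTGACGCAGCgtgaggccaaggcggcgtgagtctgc
SNCG: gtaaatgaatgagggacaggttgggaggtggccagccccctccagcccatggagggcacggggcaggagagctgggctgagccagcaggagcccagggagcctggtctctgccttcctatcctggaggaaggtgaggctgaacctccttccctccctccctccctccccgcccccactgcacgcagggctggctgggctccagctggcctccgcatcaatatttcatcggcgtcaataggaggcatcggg
APP: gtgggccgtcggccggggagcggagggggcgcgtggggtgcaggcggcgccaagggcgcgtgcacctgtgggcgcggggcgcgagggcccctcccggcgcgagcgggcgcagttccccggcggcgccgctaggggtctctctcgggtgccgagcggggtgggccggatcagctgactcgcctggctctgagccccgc

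In PARK7 the match began 83 bases before the start and was on the strand of the gene. In SNCB it lay 74 bases before the start and was on the opposite strand, so the capitals show the reverse complement. A match is a run of letters and was not tested as a binding site. The 250-base windows also differed in CpG dinucleotides. The APP window that contains the stretch above had 34, more than 93.2% of all windows. PARK7 had 28, SNCB 26 and LRRK2 25, against 12 for TARDBP and for the second APP start, and a median of 11 over all windows. The SNCG windows had 6 and 7, more than 38.1% and 41.1% of all windows. SNCB and LRRK2, which had few counts, thus had CpG-rich windows as PARK7 and APP did.

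Before any division by length, the 8 genes fell into a group with high counts (APP, TARDBP, SOD1 and PARK7), PINK1 in between, and a group with few or hardly any (LRRK2, SNCB and SNCG). The plot of CPM by library shows this separation, which is far wider than the spread between the libraries.

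**Figure D1:**
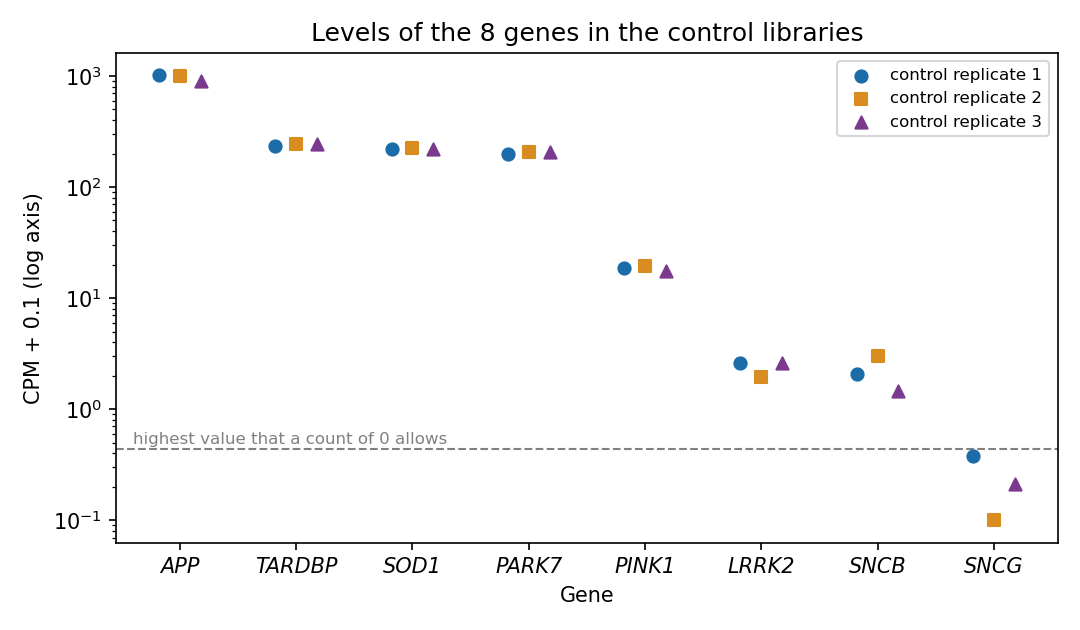
Level of each gene (CPM plus 0.1, log axis) in the 3 control libraries, 1 point per library. APP lies at 897 to 1013 CPM, while all 3 values of SNCG lie under the dashed line, which marks the highest CPM that a count of 0 allows.

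SNCB, which encodes beta-synuclein, had 21, 33 and 12 counts in control replicates 1, 2 and 3. The levels were 1.96, 2.89 and 1.36 CPM, a mean of 2.07 ± 0.772 CPM (SD, n = 3). Replicate 2 was highest and replicate 3 lowest, and their ratio was 2.13. Without replicate 3 the mean was 2.43 CPM. Counting error alone is 17.4 to 28.9% of each value, and the coefficient of variation (CV) between libraries was 37.3%.

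SNCG, which encodes gamma-synuclein, had 3, 0 and 1 counts. The 4 counts in all correspond to 0.129 CPM over the pooled libraries, with an exact 95% Poisson interval of 0.0352 to 0.331 CPM that covers counting error only. SNCG was thus not detectable above the limit that a count of 0 allows in any single library. Both synuclein genes were lower per kilobase of transcript than each of the 14 synaptic vesicle genes listed beside them, under all 4 lengths described below.

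PINK1 had 197, 221 and 156 counts. Its levels of 18.4, 19.3 and 17.6 CPM gave a mean of 18.5 ± 0.862 CPM (SD, n = 3). The CV of 4.67% was smaller than the counting error of each library, which ranged from 6.73 to 8.01%, so the libraries were not distinguishable at this gene. PINK1 shares 1907 exonic bases, 39.4% of its exonic length in GENCODE 29, with the antisense gene PINK1-AS on the opposite strand. PINK1-AS had 62, 54 and 66 counts. Whether the counting used strand is not stated, so the split of reads between PINK1 and PINK1-AS is uncertain.

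PARK7 had 2131, 2362 and 1844 counts, or 199, 207 and 208 CPM. The mean was 205 ± 4.79 CPM (SD, n = 3), and the highest library exceeded the lowest by a ratio of 1.04. Its CV of 2.34% was close to the counting error of 2.06 to 2.33%.

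LRRK2 had 27, 21 and 22 counts. The levels were 2.52, 1.84 and 2.48 CPM, with a mean of 2.28 ± 0.386 CPM (SD, n = 3). Replicate 2 was the lowest, and the CV of 16.9% was below the counting error of 19.2 to 21.8%.

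APP had the most counts of the 8, with 10830, 11358 and 7939. Levels of 1013, 994 and 897 CPM gave a mean of 968 ± 62.4 CPM (SD, n = 3). Replicate 3 was the lowest, and the mean without it was 1003 CPM. Here counting error was only 0.938 to 1.12%, so the CV of 6.45% was several times larger than sampling noise. Without replicate 3 the CV was 1.32%. The exons of APP overlap those of a long non-coding RNA gene on the opposite strand, AP000229.1, by 68 bases, or 1.08% of their length.

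SOD1 had 2332, 2544 and 1961 counts. Its levels were 218, 223 and 221 CPM, with a mean of 221 ± 2.37 CPM (SD, n = 3). The CV of 1.07% was below the counting error of 1.98 to 2.26%.

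TARDBP had 2508, 2755 and 2172 counts. The levels of 235, 241 and 245 CPM gave a mean of 240 ± 5.42 CPM (SD, n = 3). Its CV was 2.26%, near the counting error of 1.91 to 2.15%. In GENCODE 29, 1760 of its 6071 exonic bases are shared with AL109811.4, a protein-coding gene on the same strand for which no count was used here. How reads shared by such genes were assigned is not stated, and the level of TARDBP is uncertain to that extent.

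Since longer transcripts yield more fragments, levels of different genes were compared per kilobase, first of the longest protein-coding transcript. On this scale APP had 273 ± 17.6 CPM per kilobase (SD, n = 3), followed by SOD1 with 228 ± 2.45 and PARK7 with 188 ± 4.41 CPM per kilobase. TARDBP had 44.8 ± 1.01 CPM per kilobase and PINK1 6.94 ± 0.324. SNCB had 1.47 ± 0.549, LRRK2 0.249 ± 0.0421 and SNCG 0.187 ± 0.201 CPM per kilobase. The ranges over the 3 libraries of neighbours in this order did not overlap, except for LRRK2 and SNCG. On this scale replicate 1, with 3 of the 4 counts of SNCG, decides that overlap. Without it SNCG had a mean of 0.0805 CPM per kilobase and a range of 0 to 0.161, below the range of 0.201 to 0.271 for LRRK2. By coding length the ranges still overlapped without replicate 1, at 0 to 0.296 for SNCG and 0.242 to 0.328 for LRRK2. With all 3 libraries SNCG then had the higher mean, 0.344 against 0.301, so the order of these genes is uncertain.

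Among the measured genes, APP, SOD1 and PARK7 had a level per kilobase above that of 99.0%, 98.7% and 98.4% of genes. TARDBP was above 89.5% and PINK1 above 43.6%. SNCB was above 13.9% and LRRK2 above 0.714% of genes. By coding length, among the measured genes that have one, PINK1 was above 28.0% and LRRK2 above 0.202%, while TARDBP was above 94.2% and SNCB above 16.3%.

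**Figure D2:**
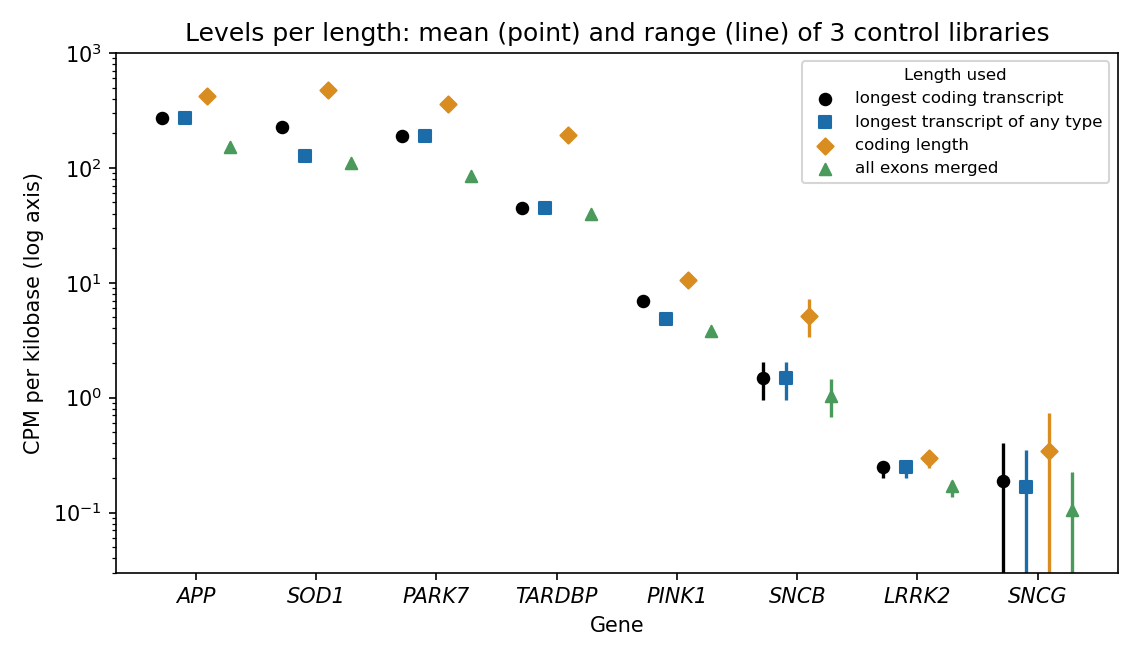
CPM per kilobase (log axis) of each gene under 4 choices of length. Points are means and lines the ranges of the 3 control libraries, and lines that reach the lower edge include a library with 0 counts. APP, SOD1 and PARK7 exchange places between lengths, while TARDBP, PINK1 and SNCB keep their places.

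The order of the top genes depended on the length used. By coding length SOD1 had 478 CPM per kilobase, APP 419 and PARK7 360, and TARDBP had 193 in place of 44.8, since 1242 of the 5367 bases of its transcript are coding. By the longest transcript of any type SOD1 had 126 CPM per kilobase and ranked below PARK7. That transcript of SOD1 has 1746 bases, against 966 for the longest protein-coding one. With all exons of a gene merged the order was the same as with the coding transcript.

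Without any removal of a GC trend, the spread of SOD1, PARK7, TARDBP and PINK1 was small beside that of most genes of like count. That of APP was not. The median CV over the 13920 measured genes was 8.69%, and the 25th and 75th percentiles were 5.16 and 13.8%. For each of the 7 measured genes, genes within 1.5-fold of its mean count were taken as a reference. SOD1 had a lower CV than all but 2.51% of 1076 such genes. After removal of the GC trend described below, the CV of SOD1 was 0.894% with the GC of its coding transcript and 5.66% with that of its longest transcript of any type. That of TARDBP was then 5.15% with the GC of its coding transcript. The reference genes, without this removal, had median CVs of 5.74% for SOD1 and 5.73% for TARDBP. Also without it, PARK7 and TARDBP had a lower CV than most, with 14.6% of 1208 and 14.5% of 932 genes below them. For APP 68.8% of 112 genes had a lower CV, and for SNCB 92.5% of 1435 genes had. LRRK2 was near the middle, with 40.9% of 1434 genes below it, and PINK1 had 16.4% of 2415 genes below it.

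**Figure D3:**
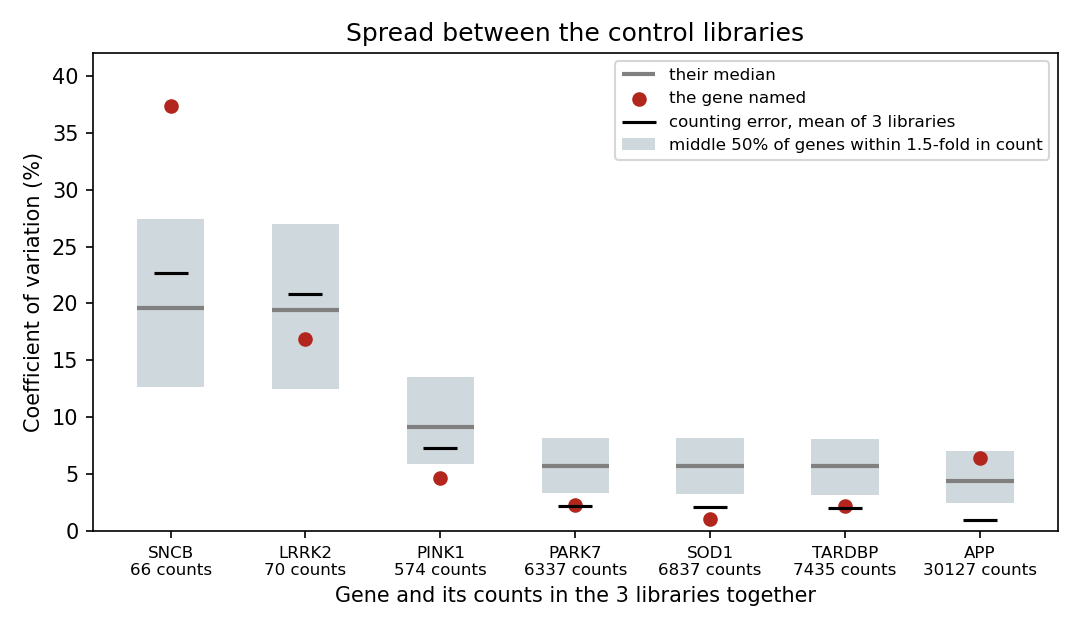
CV between the 3 control libraries (red points) for the 7 measured genes. Grey boxes give the 25th to 75th percentile of measured genes within 1.5-fold in mean count, grey lines their median, and black bars the counting error. SNCB lies above its box at 37.3%, SOD1 below it at 1.07%, and APP within its box but far above its counting error.

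Replicate 3 was compared with the mean of replicates 1 and 2 on the log2 CPM scale. The difference was -0.81 for SNCB, -0.16 for APP and -0.10 for PINK1. It was 0.21 for LRRK2, 0.04 for TARDBP, 0.04 for PARK7 and 0.01 for SOD1. Over the 13920 genes the 5th and 95th percentiles were -0.40 and 0.43, so SNCB was the only one of these 7 genes outside that range. Among measured genes within 1.5-fold of its count, 3.28% had a lower difference than SNCB. That reference leaves out genes with under 10 counts in replicate 3, so the share may be too small.

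The order of these differences resembled that of GC content. LRRK2, at 38.5% GC, had the largest positive difference, and SNCB, at 66.1%, the most negative. For LRRK2, however, replicate 3 (2.48 CPM) was below replicate 1 (2.52 CPM) and above only replicate 2 (1.84 CPM). Counting error was 19.2 to 21.8% for LRRK2 and 17.4 to 28.9% for SNCB, so both ends of this order rest on few counts. For nuclear genes of the same GC as LRRK2 the fitted difference was 0.18, and for those of the GC of SNCB it was -0.27. TARDBP, at 40.2% GC, was at 0.04 where the fitted value was 0.17. APP, at 48.7% GC, was at -0.16 where the fitted value was -0.01. PINK1, PARK7 and SOD1, at 58.6%, 45.0% and 45.7% GC, were within 0.04 of their fitted values of -0.14, 0.05 and 0.03. The part of GC content in the differences of single genes was not tested.

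**Figure D4:**
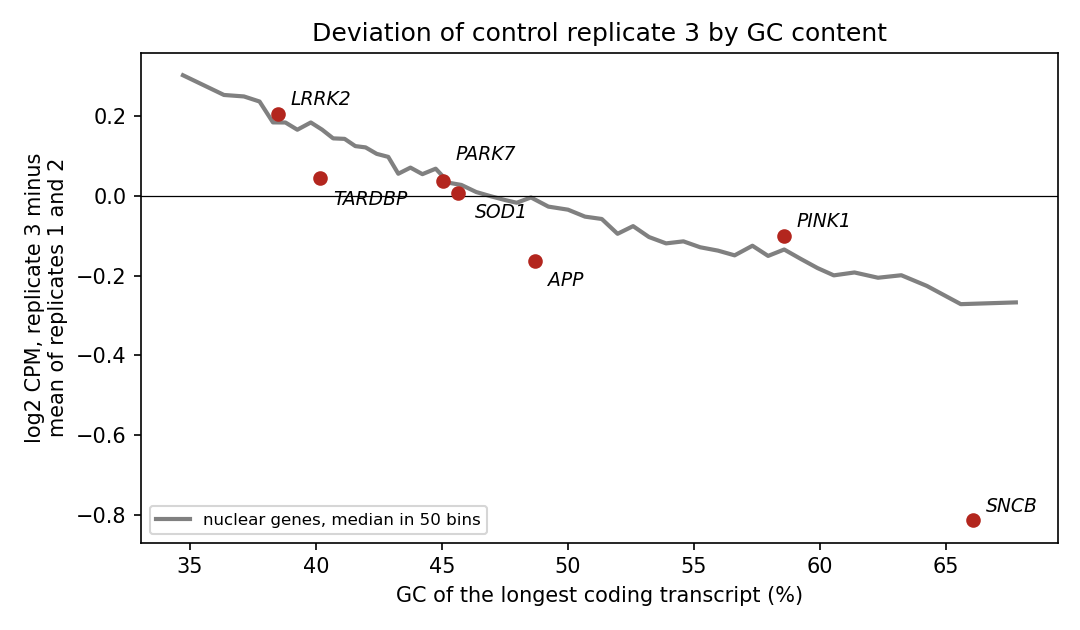
Difference in log2 CPM between control replicate 3 and the mean of replicates 1 and 2 (vertical axis) against the GC percentage of the longest coding transcript. The grey line is the median of nuclear genes in 50 bins, and each red point is a gene. SNCB lies furthest below the line, and TARDBP and APP lie below it by a smaller distance.

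With the GC trend removed from each library, the difference of replicate 3 was -0.54 for SNCB, -0.15 for APP and -0.12 for TARDBP. For LRRK2, PINK1, PARK7 and SOD1 it was then 0.02, 0.04, -0.01 and -0.02. The CV of SNCB went from 37.3 to 32.1% and that of PARK7 from 2.34 to 0.884%. The CVs of TARDBP and LRRK2 moved the other way, from 2.26 to 5.15% and from 16.9 to 19.4%.

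Genes that act with the 8 were taken from 7 lists, and are given by how many were measured and by their levels. As a reference, the median over the measured genes was 8.82 CPM per kilobase. Each list median is the mean ± SD over the 3 libraries and covers all genes of the list, also those not measured. The reference covers measured genes only, so it is not like for like with the LRRK2 and superoxide dismutase lists. In CPM the medians of these lists were 28.0 and 34.2 over all genes, and 32.8 and 38.6 over measured genes.

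The synaptic vesicle list, which covers the vesicle proteins and chaperones near which synucleins act, had 14 of 14 genes measured. Its median was 19.3 ± 1.46 CPM per kilobase. HSPA8, a constitutive chaperone, was highest at 3303 ± 97.1 CPM, and RAB3A, a small GTPase of synaptic vesicles, lowest at 12.4 ± 1.21 CPM (SD, n = 3). Low counts were therefore found for SNCB and SNCG in cells in which these vesicle genes were all measured.

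All 19 PINK1 mitophagy genes were measured, with a median of 23.8 ± 0.916 CPM per kilobase. TOMM20, a receptor of the mitochondrial import complex, was highest at 327 ± 36.6 CPM (SD, n = 3). OMA1, a stress-activated protease of the inner membrane, was lowest, with 28, 19 and 49 counts and 3.27 ± 2.02 CPM. Its level in replicate 3 was 5.53 CPM, against 2.62 and 1.66 CPM in the others. Per kilobase, PINK1 exceeded 3 of the 19 genes, and 2 by the longest transcript of any type or by merged exons.

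Of the 15 LRRK2 pathway genes, 13 were measured, and the median over all 15 was 9.94 ± 1.31 CPM per kilobase. SPAG9, a scaffold that binds phosphorylated Rab proteins, was highest at 322 ± 6.02 CPM (SD, n = 3). Among the measured genes RILPL2, an adaptor of phosphorylated Rab proteins, was lowest at 7.90 ± 0.318 CPM. RAB43, a substrate of LRRK2, had 12, 20 and 9 counts, and PPM1H, a phosphatase that reverses Rab phosphorylation, had 1, 3 and 4. By mean level per kilobase LRRK2 itself exceeded only PPM1H, and 14 of the 15 genes were higher, under each of the 4 lengths. RAB43, which was not measured, was close to it. Per kilobase of the longest coding transcript RAB43 had 0.290 ± 0.0888 CPM and LRRK2 0.249 ± 0.0421, so their order is uncertain. LRRK1, the paralog of LRRK2, had 319, 320 and 221 counts and 27.6 ± 2.46 CPM. Per kilobase it was higher than LRRK2 in every library, by ratios of 14.1, 18.2 and 12.0. The mean ratio was 14.8 ± 3.15 (SD, n = 3), and 9.48 with all exons merged.

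In the list of APP relatives, secretases and adaptors, 17 of 17 genes were measured. The median was 16.1 ± 2.29 CPM per kilobase, and APP was higher than all 17 under each of the 4 lengths. APLP2 and APLP1 encode the amyloid precursor-like proteins. APLP2 was the highest of the list at 764 ± 17.5 CPM (SD, n = 3), and APLP1 had 215 ± 12.3 CPM. Per kilobase APP exceeded APLP2 by ratios of 1.37, 1.37 and 1.27 in the 3 libraries and APLP1 by 3.19, 3.18 and 3.15. The ratio of APP to APLP1 was thus steadier, at 3.17 ± 0.0232, than either level alone, both being lowest in replicate 3. BACE2, a paralog of the beta-secretase gene BACE1, was lowest, with 20, 24 and 17 counts and 1.96 ± 0.121 CPM. BACE1 itself, chosen after its values were seen, had 82.8 ± 2.75 CPM.

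The superoxide dismutase and copper list had 7 of 8 genes measured. Its median over all 8, SOD3 at 0 included, was 8.66 ± 0.408 CPM per kilobase. SOD1 was higher than all 8 under each of the 4 lengths. SOD2, the mitochondrial manganese enzyme, had 1179, 1197 and 1081 counts and 112 ± 8.85 CPM (SD, n = 3), the highest of the list. SOD3, the extracellular enzyme, had 0 counts in all 3 libraries, a level of at most 0.339 CPM. Per kilobase of the longest coding transcript SOD1 exceeded SOD2 by 29.2, 31.4 and 26.8 in the 3 libraries. By coding length the mean ratio was 2.84 ± 0.224, so its size depends on the long untranslated part of SOD2 while its direction did not change. CCS, the chaperone that loads copper into SOD1, was the lowest measured gene, at 13.9 ± 0.231 CPM.

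The list of genes related to TARDBP holds RNA-binding proteins, targets of TARDBP such as STMN2 and UNC13A, and the protein quality control genes UBQLN2 and VCP. All 16 were measured, with a median of 80.3 ± 3.24 CPM per kilobase. HNRNPA2B1, a nuclear RNA-binding protein, was highest at 1570 ± 60.8 CPM (SD, n = 3). MATR3, a nuclear matrix protein, was lowest with 19, 26 and 15 counts. Its symbol is carried by a second identifier with 0 counts in each library, and 5141 exonic bases, 80.9% of the exonic length of that identifier, are shared between them. The level of MATR3 is therefore uncertain. TARDBP exceeded 6 of the 16 genes per kilobase, and 8 of them by coding length.

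The genes listed with PARK7 detoxify glyoxals or encode chaperones, a protease and a deubiquitinase, and all 6 were measured. Their median was 83.2 ± 3.28 CPM per kilobase. UCHL1, a neuronal deubiquitinase, was highest at 724 ± 12.6 CPM (SD, n = 3), and HTRA2, a mitochondrial protease, lowest at 26.6 ± 2.29 CPM. PARK7 exceeded 4 of these 6 genes per kilobase, and 5 by coding length.

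**Figure D5:**
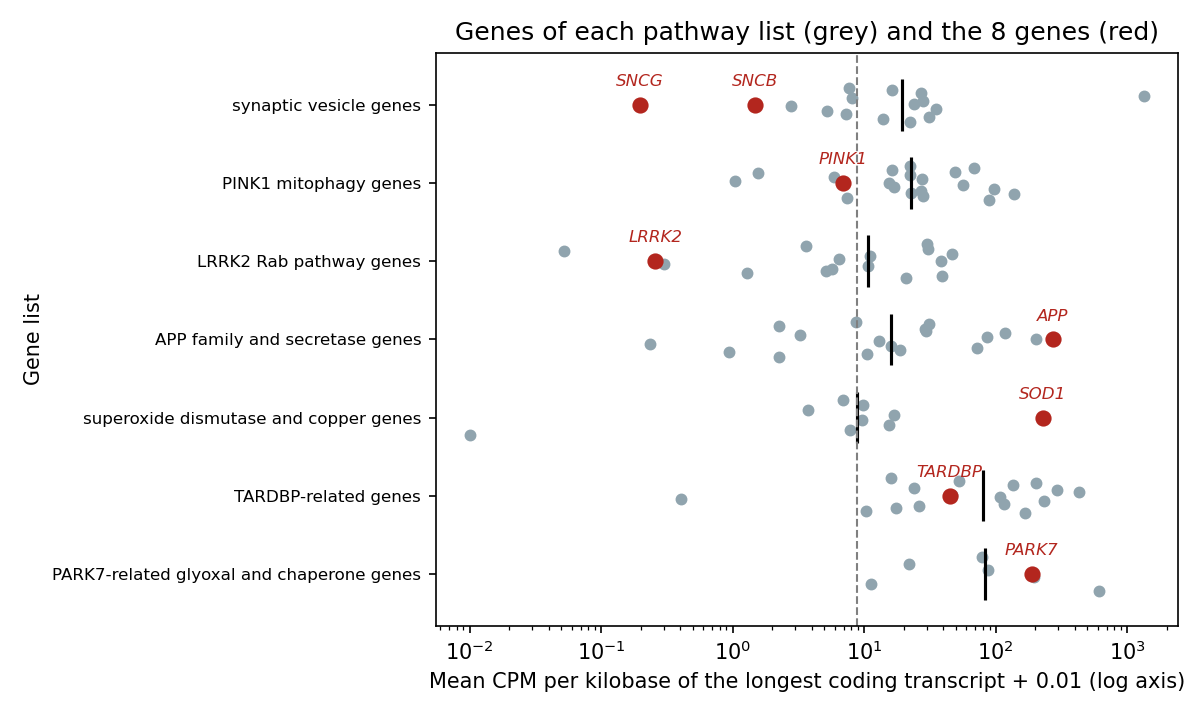
Mean CPM per kilobase of the longest coding transcript, plus 0.01 (log axis), for the genes of the 7 lists (grey points) and the 8 genes described (red). Black bars are list medians of the gene means, and the dashed line is the median of the measured genes, 8.82 CPM per kilobase. APP and SOD1 lie to the right of every gene of their lists, and SNCB, SNCG and LRRK2 at or near the left end.

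Replicate 3 was above the mean of the other libraries for 12 of the 19 PINK1 mitophagy genes, whose median GC was 45.7%. It was below it for 9 of the 14 synaptic vesicle genes, whose median GC was 57.9%. The median differences of these lists were 0.11 and -0.07 on the log2 scale. In the other 5 lists the median difference of measured genes lay between -0.05 and 0.05. Among these, the TARDBP-related list (median GC 42.9%) and the superoxide dismutase and copper list (44.7%) were each at 0.02, although their GC was lower than that of the mitophagy list. Over all 13920 genes the median was -0.01 and the 25th and 75th percentiles were -0.16 and 0.16, a range that holds the medians of all 7 lists. The share of all genes above or below the other libraries was not counted.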

How the data were processed

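Messenger RNA was sequenced from stranded libraries of SH-SY5Y cells, per the labels' protocols. The authors deposited whole-number counts per gene, not normalized, under Ensembl identifiers. The submitters' processing notes name fastp 0.21.1, STAR 2.7.7a, featureCounts and build GRCh38; the annotation release, the strand setting and the treatment of shared reads are not given in the sources used here. Columns were matched to the 3 control samples by number, and 3 columns of no labelled sample were not used. A test of treated against control samples with edgeR's quasi-likelihood method had been set down and could not be run. The members and lists were chosen with earlier results of these data known. No test was made, and no count of called genes is given.

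Entries of 2 lines that name no gene, and 1 gene without values, were left out. Symbols matched 60480 identifiers, and 213 more, SOD2 among them, were named from GENCODE 29. Counts were scaled to CPM (per 1000000) by the TMM method (edgeR 4.0.16, under R 4.3.3). Counts of the library pairs differed by more than sampling noise (chi-square per degree of freedom 2.21, 10.2 and 9.21, where noise alone gives about 1). Length and GC were those of the longest protein-coding transcript in GENCODE 29, or of the longest transcript for other genes. The GC trend was the median deviation from each gene's mean in 50 bins of 10290 nuclear genes, those measured (minimum 10 counts in each library) whose mean count reached 100. On simulated counts of these 10290 genes, a slope of -0.02 per percent GC in replicate 3 was returned as -0.0201. The genes named are the 8 members, their paralogs, and in each list the highest and lowest in CPM and those under 10 counts in any library. Totals were 8887854 to 11397407 counts, and intervals cover counting error only. Alternatives were other scalings, lengths and GC values, and each library left out in turn. Other steps used scipy 1.17.1, pandas 2.3.3 and numpy 2.4.6 under Python 3.11.15.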

Additional observations from a re-analysis of the deposited data

How the results depend on the processing

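The peptide comparison and its alternatives (replicate block, DESeq2, no filter on low counts) were not run. No paired analysis was possible because counts of 1 group alone were used. Merged exons, the longest transcript of any type and its GC were chosen after seeing the data.

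Mean CPM moved by more than 1 SD between libraries in 4 of 40 values from settings that kept all libraries. These were PARK7 (215 CPM), PINK1 (19.4), SOD1 (232) and TARDBP (252), each with mitochondrial genes left out, which raises nuclear genes by 4.97% on average by construction. Removal of the GC trend moved the CV of PARK7 to 0.884% and that of TARDBP to 5.15%. With GC from the longest transcript of any type, these CVs were 0.852% and 4.78%, and that of SOD1 was 5.66% in place of 0.894%. Across the fits that left out a library, CVs ranged from 1.32 to 8.61% for APP, 1.14 to 22.3% for LRRK2, 0.524 to 3.11% for PARK7, 3.16 to 6.59% for PINK1, 25.9 to 51.1% for SNCB, 0.375 to 1.46% for SOD1 and 1.22 to 3.17% for TARDBP. Per length, 4 genes changed rank by coding length, 2 by the longest transcript of any type, and 0 to 2 when a library was left out, where LRRK2 and SNCG changed places without replicate 2. Of 42 list medians of CPM, not divided by length, from settings that kept all libraries, 6 moved by more than 1 SD between libraries. Without mitochondrial genes 4 moved, and over members with at least 10 counts 2 moved. In the other 5 lists every gene was measured, so the minimum of 10 counts could not change their medians. Medians with a library left out are not counted here, since leaving out a library cannot move these means by 1 SD. The list medians per kilobase given above were not put through these alternatives. Depth limits SNCG, SNCB and LRRK2 most, with 4, 66 and 70 counts in all.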
